A study of Mus musculus with 6 samples.

Results

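Grpr and the bombesin peptide system comprise the gastrin-releasing peptide receptor (Grpr), the neuromedin B receptor (Nmbr), bombesin receptor subtype 3 (Brs3) and the 2 mammalian bombesin-like peptides, gastrin-releasing peptide (Grp) and neuromedin B (Nmb). All 5 genes were found by symbol among the 19938 genes that had a row with a single gene symbol, and each had 1 row (transcript clusters 10607712, 10361818, 10599776, 10456353 and 10565067). The group was selected on the difference of Grpr between 1,25D and control in these same arrays, so the values of Grpr are a description and carry no test here. The 1,25D group held 3 arrays of primary mixed neuron-glial cultures in serum-free medium with 10 nM 1,25-dihydroxyvitamin D3 (1,25D, the hormonally active form of vitamin D), and the control group held 3 arrays of such cultures with vehicle. Cells of both groups came from brains of OF1 mouse embryos at day 17 and had differentiated in fetal calf serum, with no genetic change in either group. Such a culture holds several cell types at once and no cells of an adult brain, and neither the length of treatment nor the pooling of embryos is given in the sources used here. The values are RMA intensities on a linear scale, of which log2 was taken. The labels call the arrays biological replicates, without saying what the replicate numbers share, so a p-value here measures only how these arrays spread, which may be technical.

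Bombesin receptors are G protein-coupled receptors that act mainly through Gq: phospholipase C releases inositol trisphosphate, calcium leaves its stores and protein kinase C is switched on. GRPR prefers gastrin-releasing peptide, NMBR prefers neuromedin B, and BRS3 binds neither peptide with high affinity. In rodent brain GRPR is known from inhibitory interneurons of the amygdala and hippocampus, and in the spinal cord from neurons that relay itch.

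The arrays were alike in overall level, with a median intensity over genes between 240.8 and 252.9 in the 1,25D group and between 240.4 and 251.0 in the control group. In replicate 1, 1,25D and control held exactly the same value for 1094 genes (5.49%), against at most 19 genes for any other pair of arrays. None of the 5 genes of the bombesin system was among them. Arrays with equal replicate numbers deviated together from their group means (r = 0.51, 0.64 and 0.46 across genes), so differences are given overall and within each number. S100g (calbindin-D9k, which the vitamin D receptor is known to induce in gut) and Crabp1, a retinoic acid-binding protein, rose 2.95-fold and 6.31-fold, with adjusted p = 0.022 and 0.029 (limma). Both were named with their rises known, so they are no independent check that the hormone acted. Vdr, the receptor itself, averaged 8.86 ± 0.67 with 1,25D and 7.10 ± 0.16 in controls on the log2 scale (SD, n = 3 each). This was a ratio of 3.39, with log2 differences of 2.38, 1.58 and 1.32 within numbers 1, 2 and 3. Vdr did not pass the threshold (limma, adjusted p = 0.38, and 0.052 with the replicate number as a block).

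Grpr had intensities of 1041, 678 and 877 on the 1,25D arrays numbered 1, 2 and 3, against 109, 76.0 and 89.9 on the control arrays. Each 1,25D array thus read more than any control array, by a wide gap, and in both groups number 1 was the highest and number 2 the lowest. On the log2 scale Grpr averaged 9.74 ± 0.31 with 1,25D and 6.50 ± 0.26 in controls (SD, n = 3 each). The difference of the means was 3.24, a ratio of 9.42 between the intensities as read. Within equal replicate numbers the ratio was 9.58, 8.93 and 9.76. In each of the 3 numbers this was the highest log2 difference of all 19938 genes, the next being 3.24 for Slc7a3 in number 1, 2.18 for Slc7a3 in number 2 and 3.05 for Crabp1 in number 3. The SD of the log2 difference over the 3 numbers was 0.068 for Grpr, and 17.2% of genes had a smaller one, the median being 0.14. The level of Grpr therefore moved with the replicate number, while its difference between the groups hardly did. Over the table, 24 genes had a mean log2 difference of at least 1 upwards and 1 gene downwards, and Grpr was the single gene past 3. In bulk cultures, more cells of a type and more RNA per cell cannot be told apart.

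**Figure D1:**
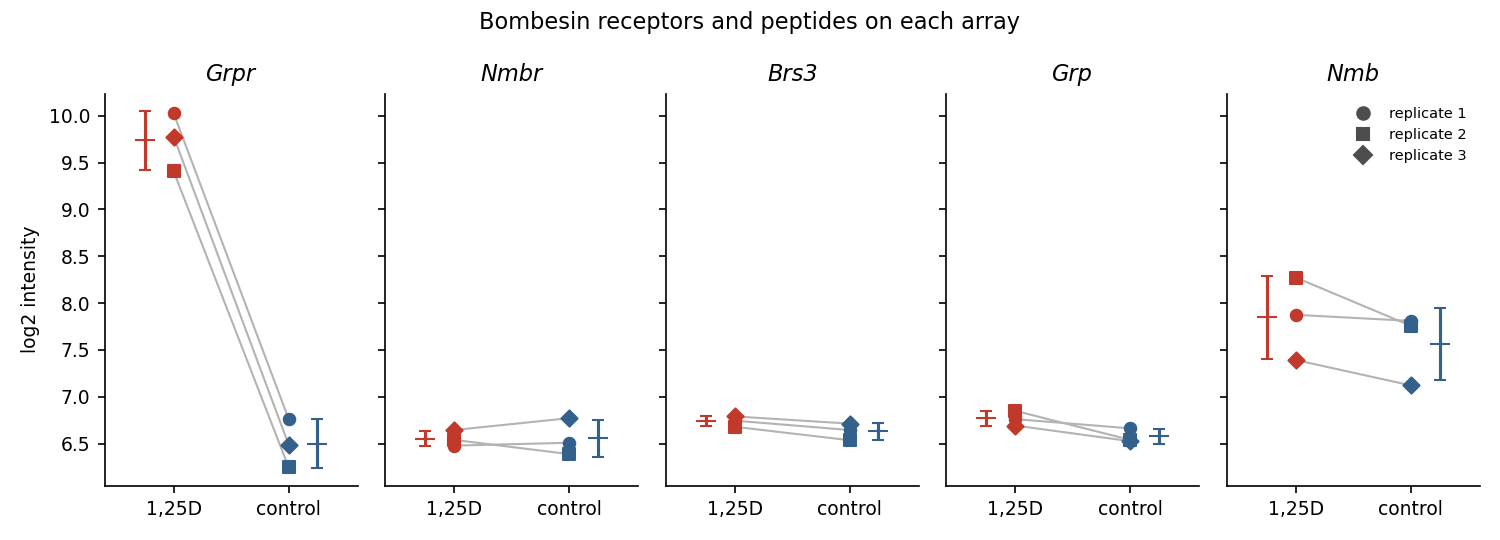
Log2 intensity (y axis) of the 5 bombesin genes on each array, 1,25D at left and control at right in each panel. Symbols mark the replicate number, grey lines join equal numbers, and the bars beside the points are mean ± SD (n = 3 each). The 3 lines of Grpr run almost parallel, with 1,25D values between 9.41 and 10.02 and control values between 6.25 and 6.76. Those of the other genes lie close to level, and levels are not comparable between panels because probes differ in affinity.

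The other 2 receptors did not share that pattern. Nmbr read 89.2, 93.1 and 100.1 with 1,25D, against 91.1, 83.8 and 109.3 in controls, and the groups overlapped. Its log2 difference was -0.00 ± 0.12 (SE, limma adjusted p = 1.00), and the 95% interval of its ratio ran from 0.82 to 1.22. Within numbers the difference was -0.03, 0.15 and -0.13, with no common direction. Brs3 read 107.3, 102.6 and 110.7 with 1,25D, against 100.1, 92.8 and 105.0 in controls, and its groups overlapped too. Its log2 difference of 0.11 ± 0.10 (SE) failed the test (limma, adjusted p = 1.00, and 0.90 with the block), although it was positive in each number (0.10, 0.14 and 0.08). Over the table, 14.8% of genes were higher in all 3 numbers. The interval of the Brs3 ratio as read, 0.92 to 1.26, does not reach the ratio as read for Grpr. Brs3 was dim, and differences of dim genes are compressed, so this interval does not bound the change in its RNA.

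Neither peptide gene passed the test. Grp, which encodes the preferred peptide of GRPR, read 108.5, 115.4 and 103.5 with 1,25D, against 101.3, 93.1 and 92.2 in controls. The groups did not overlap, but the gap between the lowest 1,25D and the highest control array was small, and 2.63% of all genes were likewise higher without overlap (4.15% in either direction). The log2 difference of Grp was 0.19 ± 0.10 (SE, limma adjusted p = 1.00, and 0.86 with the block), a ratio of 1.14 with a 95% interval of 0.98 to 1.33. Nmb, which encodes the preferred peptide of NMBR, read 234.7, 309.3 and 168.1 with 1,25D, against 224.4, 216.5 and 139.3 in controls. Its level went with the replicate number, and number 3 was the lowest in both groups. The log2 difference of Nmb was 0.28 ± 0.26 (SE, limma adjusted p = 1.00) without the block and 0.28 ± 0.10 with it (adjusted p = 0.83). Within numbers it was 0.06, 0.51 and 0.27, and the 95% interval of its ratio, 0.80 to 1.84 without the block and 1.03 to 1.44 with it, is the widest of the 4 genes tested in both fits. When single arrays were left out, the difference of Nmb ranged from 0.06 (without control replicate 3) to 0.51 (without 1,25D replicate 3). It was 0.07 without 1,25D replicate 2. Each such omission leaves 1 number without its partner, and the level of Nmb went with the number. In the blocked fit without numbers 1, 2 and 3 the difference was 0.39, 0.17 and 0.29. Of the 4 tested genes 0 were called, and 5 genes (0.0251%) were called in the whole table without the block and 18 (0.0903%) with it. At an unadjusted p under 0.05 none of the 4 passed without the block and Nmb alone passed with it (limma), where 1.48% and 5.78% of all genes did.

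**Figure D2:**
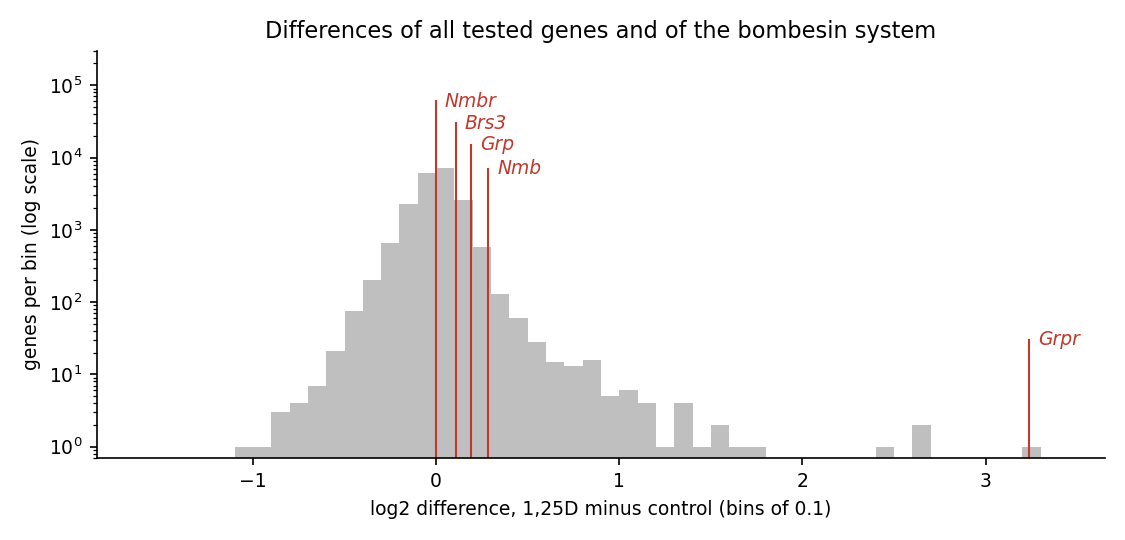
Number of genes (y axis, log scale) in bins of 0.1 of the log2 difference between 1,25D and control (x axis), over 19938 genes, with red lines at the 5 bombesin genes. Grpr stands at 3.24, far right of the bulk, while Nmbr, Brs3, Grp and Nmb lie between -0.00 and 0.28 inside it; the heights of the red lines carry no value.

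RMA gives no detection call, so whether the dim members were expressed cannot be said from these values, and differences of dim genes are compressed. The 1194 tested genes of olfactory and vomeronasal receptors, which a brain culture would not be thought to use, had mean log2 intensities from 4.05 to 7.30 (5th to 95th percentile). The 6-array means of Nmbr (6.56), Grp (6.67) and Brs3 (6.69) and the control mean of Grpr (6.50) lay in that range, and the 1,25D mean of Grpr (9.74) and the 6-array mean of Nmb (7.71) lay above it. Since probes differ in affinity, a value in the range does not show that a gene was silent. The log2 differences of these sensory receptors ran from -0.12 to 0.23 (5th to 95th percentile) with a median of 0.05, a range that holds the differences of Nmbr, Brs3 and Grp.

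Genes that act with bombesin receptors, relatives of these receptors and other peptide receptors that couple to Gq were looked at in 6 lists. Of their 74 genes, 69 were tested. In these lists 0 genes rose and 0 fell, without or with the replicate block (limma, adjusted p under 0.05). Of all genes, 0.0251% were called without the block and 0.0903% with it, so 0 calls among 69 genes say little. At an unadjusted p under 0.05 there were 0 of 69 without the block and 3 (4.35%) with it (limma). Over all genes the shares were 1.48% and 5.78%. The 3 genes were Plcb4, Rgs4 and Ntsr2, whose values follow. The list medians lay between -0.08 and 0.03, beside a median of 0.0074 over all genes. The closest relatives of bombesin receptors in sequence, the endothelin receptor Ednrb and the orphan receptors Gpr37 and Gpr37l1, had log2 differences of -0.01 ± 0.12, -0.20 ± 0.35 and -0.08 ± 0.38 (SE). Among 14 genes from Gq to calcium and protein kinase C the median was -0.02. Plcb4, a phospholipase C, had the largest difference of this list, -0.30 ± 0.23 (SE), with -0.40, -0.18 and -0.33 in the 3 numbers. It failed the test with the block too (limma, adjusted p = 0.63). Gna14, a Gq-class alpha subunit, had a log2 difference of 0.28 ± 0.20, and Prkcb, a protein kinase C, of -0.14 ± 0.10 (SE). The value of Prkcb was identical on both arrays of replicate 1, which sets that difference to 0.

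Among 9 genes that end receptor signals the median was -0.06. Rgs4, which speeds up the switch-off of Gq, was lower on every 1,25D array than on any control array, and its log2 difference was -0.24 ± 0.10 (SE). It failed the test (limma, adjusted p = 1.00, and 0.86 with the block). Such a gap downwards was found for 1.52% of all genes. Grk5, a receptor kinase, had a log2 difference of 0.19 ± 0.11 (SE). For 10 genes that make or break down peptides the median was 0.01, with Ece2 and Ece1, endothelin-converting enzymes, at -0.17 ± 0.14 and -0.17 ± 0.18 (SE).

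The 12 immediate early genes, which Gq and ERK signals are known to switch on, had a median of -0.00 and a range of log2 differences from -0.18 to 0.17. Ier2 and Egr3 had the smallest p-values among them, with differences of 0.17 ± 0.14 and 0.11 ± 0.12 (SE). Fos, the classic early gene, had a log2 difference of -0.18 ± 0.22 (SE). Among 21 other peptide receptors that couple to Gq the median was 0.03. Ntsr2, a neurotensin receptor of astrocytes, had the largest difference of these, -0.45 ± 0.20 (SE), which failed the test (limma, adjusted p = 1.00, and 0.68 with the block). Its difference was -0.84, -0.31 and -0.20 in the 3 numbers. Prokr1, a prokineticin receptor, was at -0.15 ± 0.11 (SE). The 21 receptors ranged from -0.45 to 0.13, so none showed a rise near that of Grpr.

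**Figure D3:**
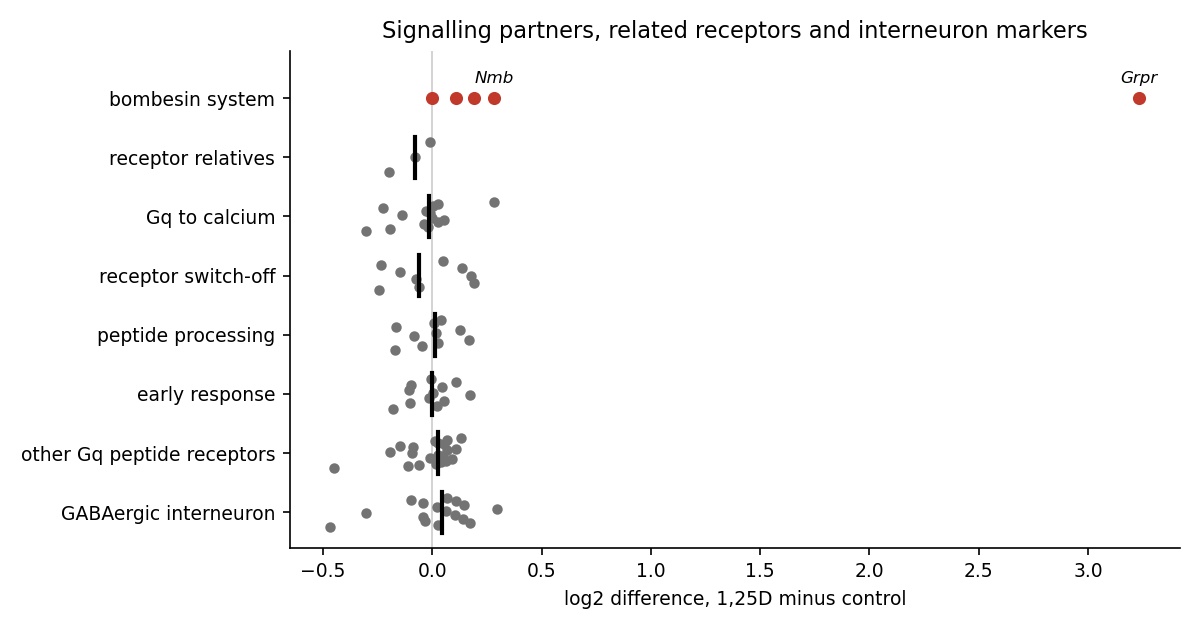
Log2 difference between 1,25D and control (x axis) of the bombesin genes (red) and of each tested gene (grey) in 6 lists of related genes and in the list of interneuron markers (y axis), with a black bar at each list's median. Grpr at 3.24 stands alone to the right; every grey point lies between -0.47 and 0.30. Vertical scatter within a list carries no value.

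Markers of the cell types that such a culture could hold were compared over 10 lists with 69 tested genes. Of these, 0 rose and 0 fell without or with the block (limma, adjusted p under 0.05). The called shares of all genes were 0.0251% and 0.0903%, so 0 calls among 69 markers say little. The 16 markers of GABAergic interneurons, the cells in which Grpr is known from the forebrain, had a median log2 difference of 0.04. Their summed intensity lay between 3203 and 4109 on the 1,25D arrays and between 3510 and 3939 on the control arrays. Vip, a peptide of such cells, and Slc32a1, the vesicular GABA transporter, had log2 differences of 0.17 ± 0.14 and 0.11 ± 0.10 (SE). The largest difference in the list, picked out after the values were seen, was that of Pvalb, parvalbumin, at -0.47 ± 0.42 (SE), with -0.95, -0.25 and -0.20 in the 3 numbers. Pvalb failed the test (limma, adjusted p = 1.00, and 0.75 with the block), though it was the list's single marker at an unadjusted p under 0.05 with the block. Htr3a, a serotonin-gated channel, was at -0.30 ± 0.42 (SE). The other 9 lists had medians from -0.16 to 0.07. At an unadjusted p under 0.05 there were 2 of 69 markers (2.90%) without the block, against 1.48% of all genes, and 7 (10.1%) with it, against 5.78%. The first 2 were Rbfox3, a nuclear protein of mature neurons, at -0.34 ± 0.14, and Pdgfrb, a receptor of pericytes, at 0.48 ± 0.21 (SE). With the block, their adjusted p was 0.50 and 0.23 (limma). The 6 general neuron markers had the lowest list median, -0.16, with summed intensities of 2033 to 3603 with 1,25D and 2625 to 3859 in controls, and Map2, a cytoskeletal protein of dendrites, was at -0.29 ± 0.25 (SE). The 8 astrocyte markers had a median of -0.08, with Aldh1l1, a folate enzyme, at -0.27 ± 0.15 and Aqp4, a water channel, at -0.23 ± 0.27 (SE). Some markers of neurons and of glia were bright, such as Map2 and Aqp4 with control means of 10.94 and 12.72. Others were dim, such as Slc17a6 and Aif1 with control means of 6.19 and 6.03, inside the range of the sensory receptors. The smallest p-values of the remaining lists, with log2 differences and SE, belonged to Olig1 (-0.28 ± 0.31) and Cspg4 (-0.12 ± 0.16) of the oligodendrocyte lineage, Cx3cr1 (0.19 ± 0.09) and Aif1 (0.12 ± 0.10) of microglia, and Cdh5 (0.17 ± 0.10) and Cldn5 (0.09 ± 0.11) of endothelium. Those of meningeal fibroblasts were Col1a1 (0.42 ± 0.18) and Dcn (0.06 ± 0.11), of excitatory neurons Slc17a7 (0.07 ± 0.12) and Neurod6 (0.07 ± 0.16), and of ependymal cells Dynlrb2 (-0.36 ± 0.30) and Ccdc153 (-0.10 ± 0.14). Kcnj8, the second of the pericyte list, was at 0.15 ± 0.11 (SE). The values of Cdh5 and Kcnj8 were identical on both arrays of replicate 1, so 1 of their 3 differences is set to 0. In all these the limma adjusted p was 1.00 without the block. The 7 markers at an unadjusted p under 0.05 with the block were Rbfox3, Pdgfrb, Pvalb, Map2, Aldh1l1, Olig1 and Col1a1 (limma). Each SE above is from the fit without the block. With it the SE was 0.11 for Map2, 0.08 for Aldh1l1, 0.09 for Olig1 and 0.12 for Col1a1. Their adjusted p with the block was 0.84, 0.70, 0.73 and 0.67 (limma).

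The position of the genes was not used to choose them. Grpr and Brs3 lie on chromosome X, Nmbr on 10, Nmb on 7 and Grp on 18. Among the 10 tested genes on either side of each member, 100 genes in all, 1 rose without or with the block (1.00%). Of all genes, 0.0251% were called without the block and 0.0903% with it. The neighbour that rose was S100g, the tested gene next to Grpr by start position. In the RefSeq gene order of GRCm38.p6, by start position, 0 protein-coding genes and 4 genes of other types lie between S100g and Grpr. S100g itself sits inside the span of Ctps2, whose end lies nearer to Grpr than that of S100g. Grpr and S100g are both read from the minus strand, and their start sites are 585 kilobases apart. That S100g and Grpr were among the genes with higher values was known from these arrays before their order was looked up. The share of 1.00% rests on S100g alone and is no test of position.

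S100g had intensities of 409, 501 and 449 with 1,25D, against 178, 138 and 145 in controls. All 1,25D arrays read more than any control array, and the log2 difference was 1.56 ± 0.13 (SE, limma adjusted p = 0.022, and 0.024 with the block). Within numbers it was 1.20, 1.86 and 1.62, so its highest value fell in number 2, where that of Grpr was the lowest. The call of S100g was lost without 1,25D replicate 1, 2 or 3 (limma, adjusted p = 0.064, 0.14 and 0.17) and without control replicate 2 or 3 (0.11 and 0.15), while its difference stayed between 1.49 and 1.67. The other 19 neighbours of Grpr had log2 differences from -0.37 to 0.21, and 0 of them passed without or with the block (limma, lowest adjusted p = 1.00 and 0.52). Ctps2, a CTP synthase gene in whose span S100g lies, was at 0.01 ± 0.15, and on the other side Rnf138rt1 was at 0.10 ± 0.10 and Ap1s2, an adaptor subunit of vesicle coats, at 0.21 ± 0.44 (SE). The rises thus covered S100g and Grpr and no other tested gene within 10 places.

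**Figure D4:**
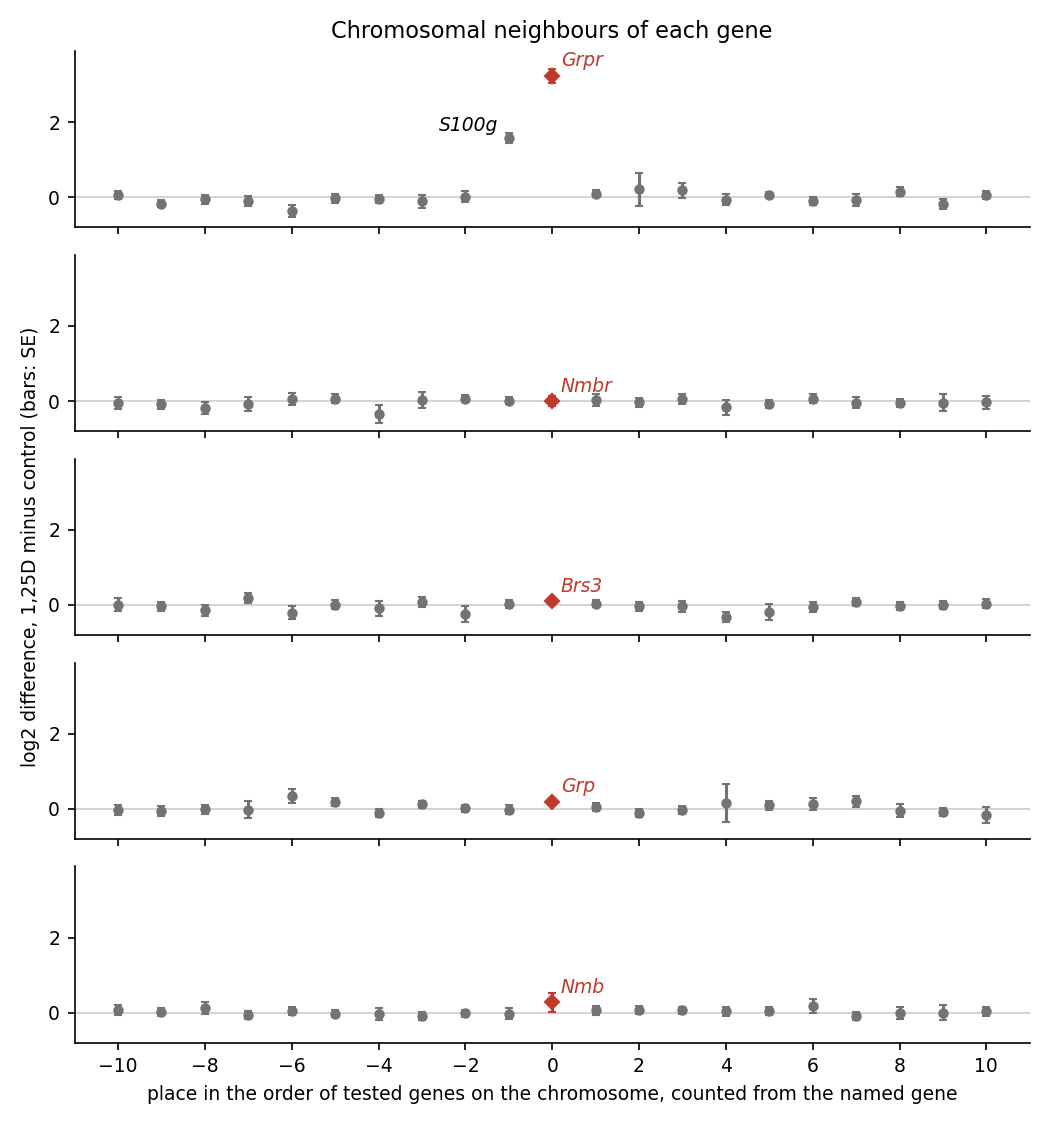
Log2 difference between 1,25D and control (y axis, bars are SE) of the 10 tested genes on either side (grey) of each bombesin gene (red), by place in the gene order of its chromosome (x axis, 0 is the named gene). Only S100g, at place -1 of Grpr and 1.56, stands clear of the grey points, which otherwise lie between -0.37 and 0.34.

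The 250 bases upstream of both neighbours are shown because Grpr and S100g were both higher on each 1,25D array and the vitamin D receptor, with its partner RXR, is known to bind paired copies of a short half-site. The sequences are from RefSeq, GRCm38.p6, minus strand, at chrX:163549737-163549986 for Grpr and chrX:162964600-162964849 for S100g, and capitals mark the half-sites AGGTCA and GGTTCA on either strand.
Grpr: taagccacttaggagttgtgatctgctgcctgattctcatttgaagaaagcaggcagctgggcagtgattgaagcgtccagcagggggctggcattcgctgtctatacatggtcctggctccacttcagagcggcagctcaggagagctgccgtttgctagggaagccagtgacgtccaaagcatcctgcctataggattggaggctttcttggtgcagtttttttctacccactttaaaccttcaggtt
S100g: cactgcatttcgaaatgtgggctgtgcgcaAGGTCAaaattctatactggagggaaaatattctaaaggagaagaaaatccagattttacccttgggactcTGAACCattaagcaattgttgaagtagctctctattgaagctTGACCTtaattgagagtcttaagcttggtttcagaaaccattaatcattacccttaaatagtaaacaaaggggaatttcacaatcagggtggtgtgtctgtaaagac
The S100g stretch held 3 half-sites, AGGTCA once as printed and once on the complementary strand, and GGTTCA on the complementary strand (where it reads TGAACC as printed), and the Grpr stretch held 0. AGGTCA occurs in 14.0% and GGTTCA in 8.85% of the 32851 upstream stretches of the same length. Neither stretch held a pair of the same half-site with a spacing of 3 bases (AGGTCANNNAGGTCA or GGTTCANNNGGTTCA), which 0.00609% of stretches hold for either pair. No match says only that these letters are not in this window.

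For Nmbr, Brs3, Grp and Nmb, 0 of 20 neighbours each passed without or with the block (limma). The nearest of Nmbr, Gje1 and Cited2, had log2 differences of 0.01 ± 0.10 and 0.03 ± 0.15, with Vta1 and Txlnb next at 0.06 ± 0.09 and -0.04 ± 0.12 (SE). Those of Brs3, Adgrg4 and Htatsf1, were at 0.02 ± 0.10 and 0.04 ± 0.10, with Map7d3 and Vgll1 at -0.24 ± 0.22 and -0.03 ± 0.12 (SE). Around Grp, Sec11c, a signal peptidase subunit, and Rax, a homeobox gene, were at -0.02 ± 0.12 and 0.05 ± 0.11, with Oacyl and Cplx4 at 0.01 ± 0.09 and -0.11 ± 0.10 (SE). Around Nmb, Wdr73 and Sec11a were at -0.02 ± 0.15 and 0.07 ± 0.12, with Zscan2 and Zfp592 at -0.02 ± 0.09 and 0.07 ± 0.11 (SE).

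Likeness to Grpr was measured as Pearson's r of log2 values over the 6 arrays, among 899 other genes whose values spanned at least 1. The 5 highest were Lcn8, a lipocalin (r = 0.997), Fbln1, the matrix protein fibulin-1 (0.98), Crabp1 (0.98), Slc7a3, a cationic amino acid transporter (0.97), and S100g (0.97). With 3 arrays in each group any gene with a clear gap between the groups has a high r, so the values describe shared grouping. The sizes differed widely, with log2 differences of 0.99 ± 0.10 for Lcn8, 1.14 ± 0.10 for Fbln1 and 2.69 ± 0.36 for Slc7a3 (SE), against 3.24 for Grpr. The most opposite were Casp12, a caspase (r = -0.87), Tgfb3, a growth factor (-0.85), and Trim12c (-0.84), with log2 differences of -0.65 ± 0.14, -0.53 ± 0.16 and -0.59 ± 0.19 (SE), none of which passed (limma, adjusted p = 1.00 each). Within the bombesin system r with Grpr was 0.83 for Grp, 0.72 for Brs3, 0.35 for Nmb and 0.01 for Nmbr, over differences of at most 0.28.

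**Figure D5:**
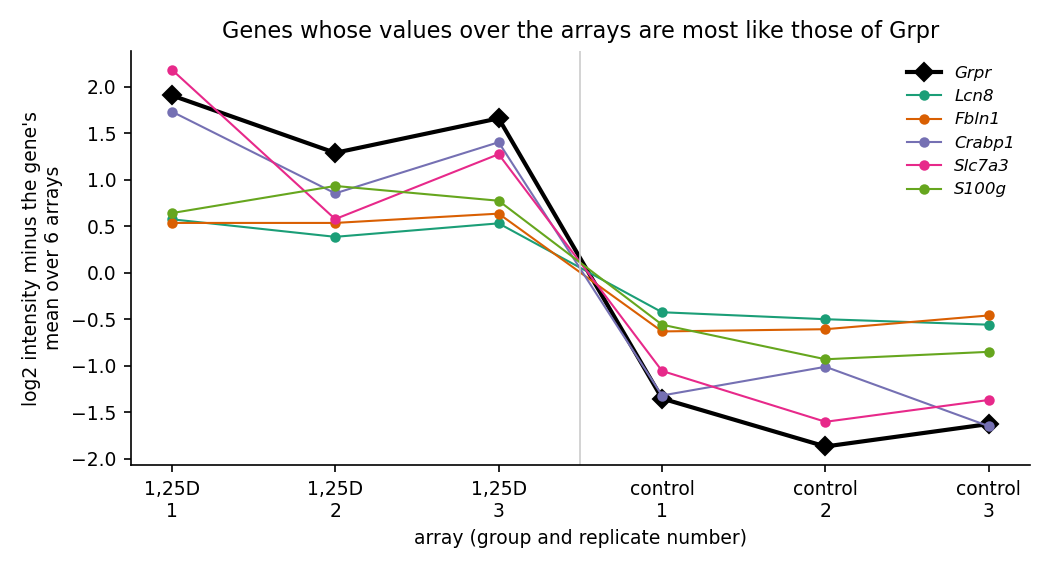
Log2 intensity minus each gene's own mean over the 6 arrays (y axis) by array (x axis, 1,25D left of control), for Grpr (black) and the 5 genes with the highest r. All 6 genes lie above 0 on the 1,25D arrays and below 0 on the control arrays. In the 1,25D group Lcn8, Crabp1 and Slc7a3 share with Grpr a lowest value in replicate 2, where S100g is highest.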

How the data were processed

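The deposited intensity values are the authors' RMA summaries, for which the submitters' processing notes name Affymetrix Expression Console. They are linear (8.05 to 22019 over the table). The sources used here give no version, probe set level, filter or genome build. Per the labels' protocols, biotinylated cDNA came from 200 ng of total RNA per array. The table held 35556 rows: 21789 had 1 gene symbol in GEO's platform annotation, 1621 several, and 12146 are unnamed here. They stood for 19938 genes, 999 of them with more than 1 row, of which the brightest on average was used.

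Log2 values of 1,25D minus control were tested with limma 3.58.1 in R 4.3.3 (lmFit, eBayes without trend, no filter on low values), with Benjamini-Hochberg adjustment over all 19938 genes and a threshold of 0.05. SE and 95% intervals are those of the moderated fit without the block, unless the block is named. The fit was tested on simulated data for its return of the changes put in. The simulated arrays held no shared effect of the replicate number, so that test cannot weigh the blocked fit against the other. Correlations of deviations from the group means for equal replicate numbers were all above 0.1, so the numbers were treated as pairs and a blocked fit stands beside the first one; no label states the pairing. The number of arrays limits the precision.

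The members and lists were chosen with earlier results of these data known. Named were all members, called or else the 2 smallest p-values of each list, the 2 nearest neighbours on each side and the genes most like Grpr. Ednrb, Fos and the remaining genes named without such a rank were chosen after their values were seen. Neighbours were matched by Entrez ID to RefSeq (GRCm38.p6, 19856 genes matched), which gave the gene order. For Grpr, S100g and Ctps2 it also gave the strands, spans, start sites and upstream sequences that are stated. Alternatives were other normalizations, filters, variance models, row choices and the omission of arrays.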

Additional observations from a re-analysis of the deposited data

How the results depend on the processing

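The log2 difference of Grpr stayed between 3.09 and 3.40 over 19 alternatives, and Grp (0.13 to 0.24), Brs3 (0.06 to 0.15) and Nmb (0.06 to 0.51) stayed positive and uncalled in each that held them. Nmbr, at -0.0016 as reported, turned positive with array weights (0.031), in the blocked fit without replicate 1 (0.013) and without replicate 3 (0.061), and ranged from -0.086 to 0.106 when single arrays were left out, always uncalled. Without the lowest 25% of genes, Nmbr, Brs3 and Grp could not be tested. The number of genes called, 5, was 18 with the replicate block, 3 after quantile normalization, 0 over all rows of the table (limma, 521 at an unadjusted p under 0.05) and 0 to 2 when single arrays were left out. In the blocked fits it was 22 without the genes of identical replicate 1 values, and 40, 3 and 45 without replicates 1, 2 and 3. Of the neighbours, S100g lost its call over all rows (0 called), in the blocked fit without replicate 2 (0 called) and in 5 of the 6 omissions of single arrays (0 to 1 called); for all rows the larger number of tests and for omissions fewer arrays were built into the setting. No gene of the pathway or marker lists was called in any setting. The replicate block changed no call of a tested member, a list gene or a neighbour. The fits without genes of identical values and the blocked fits with 1 number left out were added after seeing the data. With 3 arrays in each group, a rise of Nmb up to the upper bound of its interval, 1.84-fold without the block and 1.44-fold with it, could have been missed.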

Other observations

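Counted after the values were seen, Grpr and S100g were not the only called genes on chromosome X. Of the 5 genes called without the replicate block, 2 lie there, and of the 18 called with it, 5 (27.8%), against 739 (3.71%) of the 19938 genes tested. Grpr was selected on its difference; without it the counts are 1 of 4 and 4 of 17 (23.5%). The other 3 were Slc7a3, a cationic amino acid transporter (log2 difference 2.69), Cnksr2, a synaptic scaffold of Ras signalling (1.58), and Rab9b, a small GTPase of membrane traffic (0.76).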
